A study of Mus musculus with 9 samples.

Results

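The aminoacyl-tRNA synthetases and 2 scaffold genes, Aimp1 and Aimp2, make up the 39 genes described here, out of 36410 genes listed in RNA-seq counts of 3 mouse striatal cell lines. A gene was taken when its symbol was 1 capital letter followed by ars and then by nothing, 1, 2, a or b, and Eprs, Aimp1 and Aimp2 were added by name. Symbols ending in 2 were taken as mitochondrial synthetases (17 genes) and the other synthetase symbols as cytosolic (20 genes), with the scaffold genes counted apart. All 39 passed the filter on low counts, as did 13508 genes of the table. Control cells (STHdhQ7/Q7), a line that the study derives from wild-type embryos, carry 7 repeats on both alleles of Htt, the gene of huntingtin. HD-het cells (STHdhQ7/Q111) carry 7 on 1 allele and 111 on the other, and HD-homo cells (STHdhQ111/Q111) carry 111 on both. The repeat encodes polyglutamine, which the labels write as Glu. The 3 immortalized lines come from mouse embryos of the strain C57/BL6 with no treatment named, each genotype is 1 line, and 3 libraries were made per line. Genotype and line cannot be told apart, nothing says that the libraries of a line came from separate cultures, and p values measure only the spread between these libraries.

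A synthetase joins an amino acid to the tRNAs that carry it, and the charged tRNAs then deliver amino acids to the ribosome. Cytosolic and mitochondrial ribosomes draw on separate pools of charged tRNA, and for most amino acids a nuclear gene of its own encodes the mitochondrial enzyme. Gars and Kars each give both the cytosolic and the mitochondrial enzyme, and mitochondria charge glutamine tRNA by an indirect route through an amidotransferase. Several cytosolic synthetases (Eprs, Iars, Lars, Mars, Qars, Rars, Kars and Dars) sit in a multi-tRNA synthetase complex held together by Aimp1, Aimp2 and Eef1e1. Many cytosolic synthetase genes are known targets of ATF4, the transcription factor of the amino acid response.

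The 9 libraries held from 29507665 to 41197931 counts. Values are TMM-normalized counts per megaread (CPM). A gene was called where edgeR's quasi-likelihood test gave a p under 0.05 after Benjamini-Hochberg adjustment over all 13508 tested genes. The members had between 251 and 18682 counts in a library. Replicate libraries differed by between 2.28 times (control 1 and 2) and 41.6 times (HD-homo 2 and 3) the variance that counting alone gives. In control and HD-het cells, library 3 was the farthest from the others, at 11.6 and 12.5 times in control and 18.4 and 22.3 times in HD-het cells, against 2.28 and 6.49 times between libraries 1 and 2. The lines held few defining neuronal markers: Drd1 had 0 counts in every library, Drd2 at most 1 read and Ppp1r1b at most 17, while Map2 ran from 50 to 73.4 CPM. Of 11 markers of medium spiny neurons 3 reached 1 CPM in a library. These were Penk (at most 3.46 CPM), Pde10a (at most 5.76 CPM) and Foxp1. Foxp1 averaged 93.8 CPM in control, 114 CPM in HD-het and 168 CPM in HD-homo cells. It made up most of the sum of the 11 markers. That sum was 91.7 to 103 CPM for control, 120 to 122 CPM for HD-het and 163 to 185 CPM for HD-homo libraries. The summed level of 3 neural progenitor markers was 660 to 701 CPM in control, 949 to 989 CPM in HD-het and 27.2 to 40.2 CPM in HD-homo cells, and that of 6 mesenchymal markers was 2200 to 2910, 6690 to 8180 and 5940 to 6500 CPM. Single markers did not all follow these sums. Col1a1 made up most of the mesenchymal sum, with means of 2460, 7100 and 4230 CPM for the same order of lines, whereas Col1a2 had 73.4, 3.15 and 1490 CPM, Dcn 4.06, 1.65 and 21.5 CPM and Pdgfra 5.21, 4.38 and 307 CPM. Among the progenitor markers Nes had 526, 840 and 28.4 CPM and Sox2 128, 82.9 and 5.48 CPM. The part of these marker differences in the results on synthetases was not tested. In bulk RNA, fewer cells of a type and less RNA per cell cannot be told apart.

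Per length, the cytosolic synthetases were the more abundant class in every line. The median level was 66.8 CPM per kilobase of the longest annotated transcript in control, 59.0 in HD-het and 69.9 in HD-homo cells for the 20 cytosolic genes, and 6.15, 5.62 and 5.83 CPM per kilobase for the 17 mitochondrial genes. By this length the classes did not overlap in mean level. In control cells the lowest cytosolic gene was Wars (tryptophan) at 28.4 ± 1.46 CPM per kilobase (SD, n = 3), above the highest mitochondrial gene, Iars2 (isoleucine), at 22.7 ± 0.451. Mars2 (methionine) and Wars2 stood at the low end of the family, with 2.68 ± 0.123 and 2.68 ± 0.0946 CPM per kilobase in control cells, and these 2 values overlapped. Their longest transcripts have 11294 and 4410 bases, and their longest coding sequences 1758 and 1080 bases. Before division by length, their control means were 30.3 and 11.8 CPM, so the place of Mars2 depends on its long annotated transcript. By the median length of a gene's transcripts, chosen after seeing the data, the classes overlapped in every line. In control cells Iars2 and Tars2 then stood at 44.4 and 56.8 CPM per kilobase, above Wars at 29.05, and Cars and Yars also lay below Tars2. In every line Iars2 and Tars2 were the 2 mitochondrial genes above the lowest cytosolic gene. Their median lengths, 2801 and 946 bases, are shorter than their longest coding sequences, 3036 and 2169 bases.

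The order of levels within the cytosolic class differed between the lines, and it depended on the length used. Kars, the lysine enzyme, was first in control cells at 149 ± 5.80 CPM per kilobase and first in HD-homo cells at 181 ± 15.3. In HD-het cells Kars stood at 86.99 ± 9.80, and Nars, the asparagine enzyme, was first at 182 ± 7.71 CPM per kilobase, followed by Gars (glycine) at 171 ± 2.97. Vars, the valine enzyme, stood at 73.2 ± 2.02 in control cells and at 43.5 ± 3.71 in HD-het cells. Neighbours in this order often lay within 1 SD of each other, such as Vars and Tars (threonine) in control cells, both at 73.2 CPM per kilobase. By the median transcript length Vars was first in control and HD-homo cells, at 369.8 and 316 CPM per kilobase, and Nars was again first in HD-het cells, at 280 CPM per kilobase. The median length of Vars, 819 bases, is far below its longest coding sequence of 3834 bases, so its level by that length is uncertain.

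**Figure D1:**
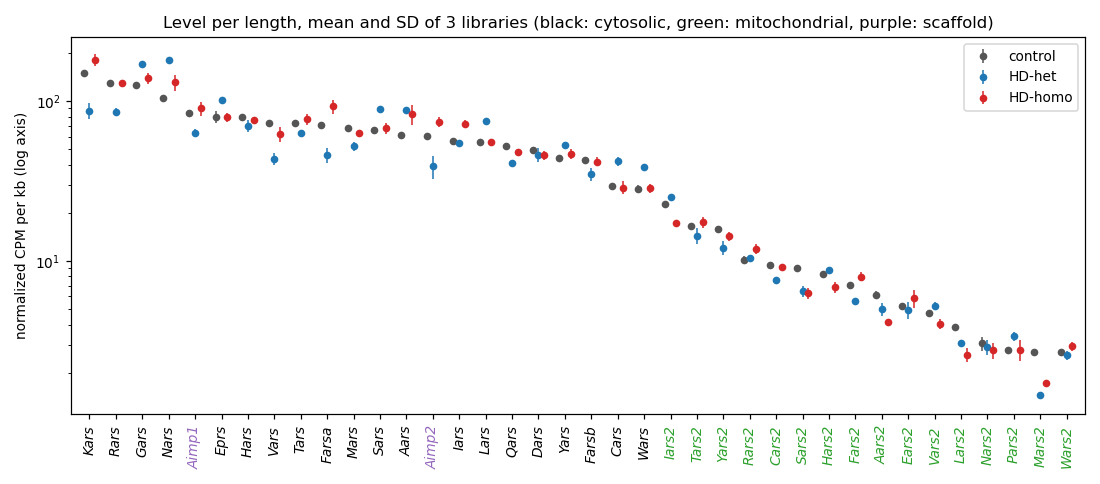
Mean normalized CPM per kilobase of the longest annotated transcript (log axis) for 38 of the 39 genes, ordered by their level in control cells, with the SD of 3 libraries as bars. Cytosolic symbols are black, mitochondrial green and scaffold purple, and by this length every cytosolic mean lies above every mitochondrial mean of the same line.

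In HD-het cells against control cells, 18 of the 20 cytosolic synthetase genes changed, 9 up and 9 down, beside 65.1% of all tested genes called (33.8% higher and 31.4% lower). The genes that rose were Nars, Cars, Aars, Sars, Wars, Gars, Lars, Eprs and Yars, with log2 fold changes from 0.27 to 0.80. The genes that fell were Kars, Vars, Farsa, Rars, Mars, Qars, Farsb, Tars and Hars, from -0.17 to -0.78. Dars (aspartate, -0.10, SE 0.07, adjusted p = 0.233) and Iars (isoleucine, -0.05, SE 0.06, adjusted p = 0.501) did not pass the threshold. For each of the 18 called genes the 3 HD-het libraries did not overlap the 3 control libraries, which was so for 74.0% of all tested genes. With 9 changes in each direction, the median log2 fold change of the cytosolic class was -0.08, beside 0.03 over all tested genes, whereas the median size of the change without its sign was 0.42 in the class and 0.40 over all genes.

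Nars showed the largest increase of the family in HD-het cells. Its levels were 292, 298 and 271 CPM in the control libraries, 495, 481 and 523 CPM in HD-het and 349, 327 and 407 CPM in HD-homo. The HD-het libraries lay above all others, 1.74 times the control mean (log2 fold change 0.80, SE 0.08, adjusted p = 6.7e-06). Cars, which charges cysteine tRNA (GRCm38 chr7:143557230-143600090, minus strand), was measured at 98.3, 95.004 and 91.8 CPM in control, 146, 133 and 129.8 CPM in HD-het and 89.5, 86.2 and 103 CPM in HD-homo libraries. The HD-het libraries were again apart from both other lines, at 1.43 times the control mean (log2 fold change 0.52, SE 0.07, adjusted p = 9.53e-05).

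Aars, the alanine enzyme (chr8:111033144-111057664, plus strand), had 366, 357 and 341 CPM in control, 519.9, 496 and 493 CPM in HD-het and 432, 441 and 557 CPM in HD-homo libraries. Both HD lines lay above the control libraries, and HD-homo library 3 lay above every HD-het library. In HD-het cells the mean was 1.42 times that of control cells (log2 fold change 0.50, SE 0.09, adjusted p = 0.000419). The longest annotated transcript of Aars overlaps Exosc6, a gene of the RNA exosome, on the same strand and shares 22.4% of its 50-base words with other genes, so that reads could be counted on either gene. Exosc6 itself averaged 74.8 CPM in control, 42.3 CPM in HD-het and 83.0 CPM in HD-homo cells.

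Sars, the serine enzyme, stood at 234, 240.1 and 230.0 CPM in control, 335, 316 and 312 CPM in HD-het and 231, 231 and 262 CPM in HD-homo libraries. Its HD-het libraries did not overlap those of either other line, at 1.37 times the control mean (log2 fold change 0.45, SE 0.06, adjusted p = 6.88e-05). Wars, the tryptophan enzyme, gave 85.02, 78.6 and 77.3 CPM, 112, 108 and 108 CPM and 80.5, 75.8 and 85.8 CPM in control, HD-het and HD-homo libraries (0.45, SE 0.06, adjusted p = 7.27e-05 for HD-het against control on the log2 scale). Lars, the leucine enzyme and a component of the complex, gave 226, 227 and 215 CPM, 297, 298 and 300.3 CPM and 212, 221 and 231 CPM (0.42, SE 0.05, adjusted p = 2.93e-05). In both genes the control and HD-homo libraries overlapped and the HD-het libraries lay above them. Yars, the tyrosine enzyme, showed the smallest of the 9 increases, with 128, 129.8 and 127 CPM in control, 153, 149 and 162 CPM in HD-het and 139, 126 and 145 CPM in HD-homo libraries (log2 fold change 0.27, SE 0.06, adjusted p = 0.00242). Eprs, a fusion enzyme that charges both glutamate and proline tRNAs, ranged from 357 to 423 CPM in control and from 475 to 523 CPM in HD-het libraries (log2 fold change 0.36, SE 0.07, adjusted p = 0.00127).

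Gars, which serves both compartments, ranged from 301 to 304 CPM in control, from 399.9 to 414 CPM in HD-het and from 308 to 357 CPM in HD-homo libraries (log2 fold change 0.43, SE 0.06, adjusted p = 7.96e-05 for HD-het against control). Because ATF4 is known to act through composite elements with the core TGATGNAA, the promoters of the family were searched for these letters on both strands. A RefSeq promoter (250 bases before to 50 bases after the start, GRCm38.p6) was matched for 29 of the 39 genes, or 74.4%, which is too few for a count over the family. The letters stand in the promoters of Aars, Gars, Iars, Tars and Yars. Of these, Aars, Gars and Yars rose in HD-het cells, Iars did not pass and Tars fell. Sars, Eprs and Iars2 also rose, and their matched promoters lack the letters. For Nars, Cars, Lars, Wars and Pars2, which rose as well, no promoter was matched. In all, 4.51% of 27025 genes with a RefSeq promoter hold TGATGNAA in at least 1 promoter. A further motif, labelled NRF1 and held by 5.19% of these genes, was also searched. It stands in the promoters of Farsb, Kars, Mars2 and Tars, which fell in HD-het cells, and of Iars2, which rose. The Gars promoter is shown because its match lies outside annotated exons, in a gene that rose in HD-het cells. The line below gives the 100 bases before the start (chr6:55037901-55038000, plus strand, 5′ to 3′), with the match in capitals. The capitals read TGATGAAA on the other strand and begin 30 bases before the start, and the match is a description of letters, not of binding.
Gars promoter: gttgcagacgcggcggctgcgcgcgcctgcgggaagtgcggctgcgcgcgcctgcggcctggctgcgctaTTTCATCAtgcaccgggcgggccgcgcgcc

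Kars, which makes both the cytosolic and the mitochondrial lysine enzyme (chr8:111993443-112011323, minus strand), showed the largest decrease among the cytosolic genes in HD-het cells. Its levels were 319, 319.7 and 341 CPM in control, 188, 170.1 and 213 CPM in HD-het and 407, 358 and 423 CPM in HD-homo libraries. The 3 lines did not overlap, with HD-het lowest and HD-homo highest, and the HD-het mean was 0.583 times the control mean (log2 fold change -0.78, SE 0.09, adjusted p = 1.43e-05). Vars (chr17:35000987-35016322, plus strand), which charges valine tRNA and binds elongation factor 1, had 302, 295 and 312 CPM in control, 182, 163 and 194 CPM in HD-het and 277, 226 and 273 CPM in HD-homo libraries. Here the lines were likewise apart, with control highest, and the HD-het mean was 0.594 times the control mean (log2 fold change -0.75, SE 0.09, adjusted p = 1.7e-05).

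Farsa encodes the catalytic subunit of the phenylalanine enzyme (chr8:84856989-84869257, plus strand). It was measured at 131, 126 and 130.3 CPM in control, 81.9, 75.8 and 94.3 CPM in HD-het and 172, 151 and 185 CPM in HD-homo libraries, 3 ranges that did not overlap. The HD-het mean was 0.650 times the control mean (log2 fold change -0.62, SE 0.09, adjusted p = 9.3e-05). Farsb, the other subunit of the same enzyme, also fell, by a smaller amount, from 86.97 ± 0.555 CPM in control to 71.4 ± 6.56 CPM in HD-het cells (log2 fold change -0.29, SE 0.07, adjusted p = 0.00455). Rars, the arginine enzyme of the complex (chr11:35808381-35834506, minus strand), had 276, 268 and 277 CPM in control, 174, 177 and 191 CPM in HD-het and 279.5, 261 and 283 CPM in HD-homo libraries. The HD-het libraries lay below both other lines, which overlapped each other, and the HD-het mean was 0.660 times the control mean (log2 fold change -0.60, SE 0.06, adjusted p = 4.07e-06). Among the smaller decreases, Mars (methionine) fell by 0.38 and Qars (glutamine) by 0.34 on the log2 scale. Mars overlaps Ddit3 on the opposite strand, and the strand setting of the counting is not given in the sources used here. Tars (-0.21, SE 0.07, adjusted p = 0.0173) and Hars (-0.17, SE 0.06, adjusted p = 0.0374) were the weakest calls. Both were lost without control 1, control 2, HD-het 1 or HD-het 2, and Hars also without control 3, with adjusted p up to 0.0669 and 0.15.

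**Figure D2:**
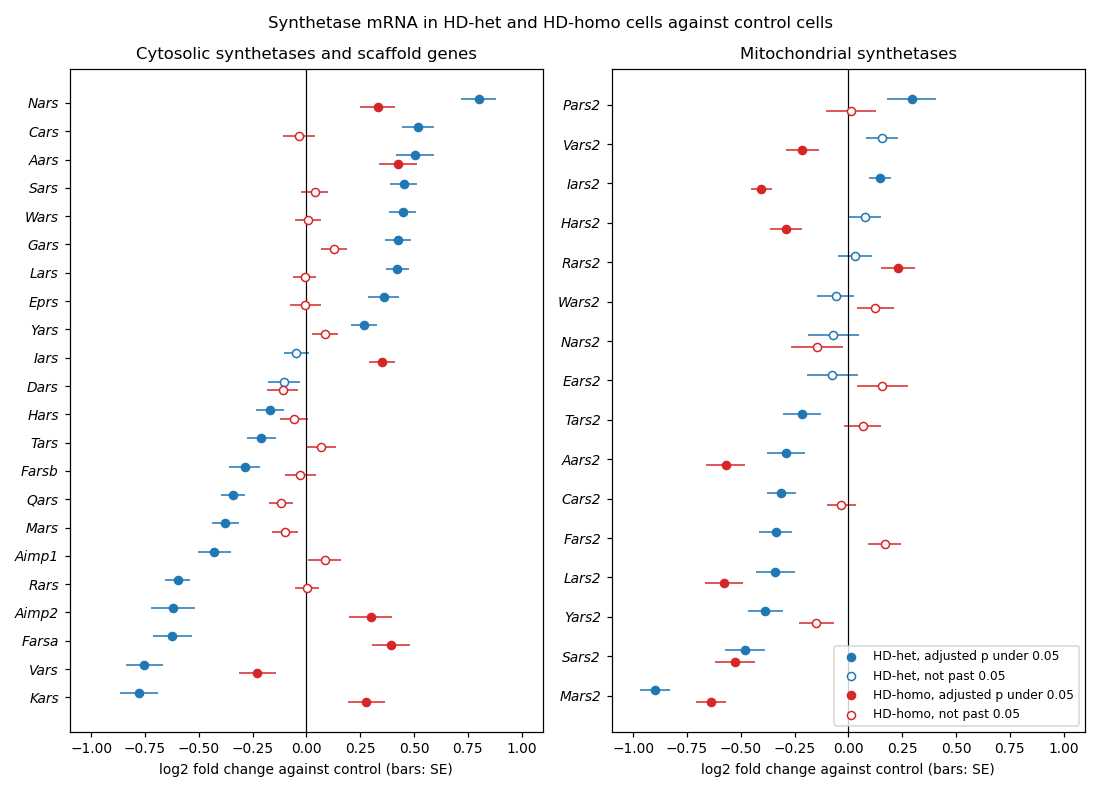
Log2 fold change of 38 of the 39 genes in HD-het (blue) and HD-homo (red) cells against control cells, with SE as bars, for the cytosolic and scaffold genes (left) and the mitochondrial genes (right). Filled points passed an adjusted p of 0.05; both comparisons use the same 3 control libraries, and the blue points spread from -0.78 to 0.80 in the left panel.

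Of the 10 family genes in the multi-tRNA synthetase complex, 6 were lower in HD-het cells (Kars, Rars, Mars, Qars, Aimp1 and Aimp2). Of the others, 2 were higher (Lars and Eprs) and 2 did not pass. This is 80% called beside 65.1% of all tested genes, with a median log2 fold change of -0.36 beside 0.03. Eef1e1, also of the complex, is given with the partners of tRNA charging below. Without the scaffold genes, 4 of the 8 enzymes of the complex were lower and 2 higher (75% called), with a median of -0.22. Among the 12 cytosolic genes outside the complex, 7 were higher and 5 lower, with a median of 0.35. The difference between these groups was not tested. Synthetases fall into structural classes by their catalytic domain. Of 10 cytosolic class I genes 5 were higher and 4 lower, and of 10 cytosolic class II genes 4 were higher and 5 lower. Both are 90% called, beside 65.1% of all tested genes. Eprs, the fusion enzyme for glutamate and proline, was counted in class I alone. Of 9 mitochondrial class I genes 1 was higher and 4 lower (55.6% called), and of 8 in class II 1 was higher and 4 lower (62.5%).

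Both scaffold genes fell in HD-het cells. Aimp2, whose protein holds the subcomplexes together, had 70.02, 70.2 and 73.5 CPM in control, 42.7, 41.2 and 55.2 CPM in HD-het and 90.9, 80.4 and 91.8 CPM in HD-homo libraries. The lines did not overlap, with HD-het lowest and HD-homo highest (log2 fold change -0.62, SE 0.10, adjusted p = 0.000255 for HD-het against control). Aimp1, whose product is also the precursor of a secreted cytokine, had 93.3, 94.6 and 98.8 CPM in control, 69.2, 68.4 and 75.5 CPM in HD-het and 97.4, 93.3 and 113 CPM in HD-homo libraries. Its HD-het libraries lay below the rest (log2 fold change -0.43, SE 0.08, adjusted p = 0.000469), and its control and HD-homo libraries overlapped.

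Among the 17 mitochondrial synthetases, 2 rose and 8 fell in HD-het cells, 58.8% of the class beside 65.1% of all tested genes, and the median log2 fold change was -0.07 beside 0.03. Mars2, the mitochondrial methionine enzyme, showed the largest decrease of the family. It is encoded by a single annotated exon (GRCm38 chr1:55237177-55248470, plus strand). Mars2 levels were 31.3, 28.7 and 30.97 CPM in control, 15.9, 16.2 and 16.7 CPM in HD-het and 18.6, 20.4 and 19.4 CPM in HD-homo libraries. The lines were apart, with HD-het lowest, at 0.537 times the control mean (log2 fold change -0.90, SE 0.07, adjusted p = 9.36e-07). Sars2, the mitochondrial serine enzyme, had 17.6, 16.5 and 16.6 CPM in control, 11.8, 11.2 and 13.2 CPM in HD-het and 12.1, 12.3 and 10.6 CPM in HD-homo libraries. Both HD lines lay below control and overlapped each other (log2 fold change -0.48, SE 0.09, adjusted p = 0.000709). Yars2, for tyrosine, had 43.8, 43.7 and 45.98 CPM in control, 31.8, 32.3 and 38.01 CPM in HD-het and 41.4, 37.1 and 41.96 CPM in HD-homo libraries. The HD-het libraries lay below control, and HD-het library 3 reached into the HD-homo range (log2 fold change -0.39, SE 0.08, adjusted p = 0.00149).

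The other mitochondrial decreases in HD-het cells were Lars2, Fars2 (phenylalanine), Cars2, Aars2 and Tars2, from -0.22 to -0.34 on the log2 scale. Tars2 had overlapping libraries and lost its call without any 1 of the control libraries, HD-het 1, HD-het 2 or HD-homo 1 (adjusted p up to 0.167), and Aars2 lost its call without control 3 or HD-het 2 (adjusted p up to 0.0588). The 2 increases were small. Pars2, for proline, had 8.18, 8.56 and 8.49 CPM in control, 10.7, 9.57 and 10.7 CPM in HD-het and 9.99, 7.51 and 7.99 CPM in HD-homo libraries, with HD-het above control and overlapping HD-homo (log2 fold change 0.29, SE 0.12, adjusted p = 0.0421). Iars2 (chr1:185284726-185329396, minus strand) had 125, 122 and 127 CPM in control, 139, 138 and 136 CPM in HD-het and 98.2, 92.4 and 91.6 CPM in HD-homo libraries, 3 ranges that did not overlap (log2 fold change 0.15, SE 0.05, adjusted p = 0.0229). The count of 2 increases became 0 without control 1, control 2 or HD-het 1 and 1 without control 3 or HD-het 3, and the highest adjusted p over all alternatives was 0.153 for Pars2 and 0.0923 for Iars2.

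In HD-homo cells against control cells, 6 of the 20 cytosolic synthetase genes were called. Of these, 5 rose (Aars, Farsa, Iars, Nars and Kars) and 1 fell (Vars), 30% of the class beside 58.6% of all tested genes (29.6% higher and 28.9% lower). The median log2 fold change of the class was 0.004 and the median size of the change was 0.09, beside 0.32 over all tested genes. In the mitochondrial class 1 gene was higher and 8 were lower, 52.9% of 17, with a median of -0.15. Libraries of the 2 lines did not overlap for 10 of the cytosolic and 12 of the mitochondrial genes, beside 65.3% of all tested genes.

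Aars showed the largest cytosolic increase in HD-homo cells, at 1.34 times the control mean (log2 fold change 0.43, SE 0.09, adjusted p = 0.00161) and 0.30 (SE 0.06, adjusted p = 0.00135) without HD-homo 3, the highest of its libraries. Farsa rose to 1.31 times the control mean (log2 fold change 0.39, SE 0.09, adjusted p = 0.00274) and Nars to 1.26 times (log2 fold change 0.33, SE 0.08, adjusted p = 0.00442). Iars, the isoleucine enzyme of the complex, had 255, 254 and 242 CPM in control, 243, 234 and 251 CPM in HD-het and 307, 311 and 342 CPM in HD-homo libraries. The HD-homo libraries lay above both other lines, which overlapped (log2 fold change 0.35, SE 0.06, adjusted p = 0.000362). Of the 50-base words of Iars, 8.61% are shared with other genes, most with the pseudogene Gm4849, so that its level is uncertain to that extent.

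Kars also rose in HD-homo cells (log2 fold change 0.28, SE 0.09, adjusted p = 0.0165), and Vars fell (log2 fold change -0.23, SE 0.09, adjusted p = 0.0385). Both calls were the weakest of the cytosolic class. That of Kars was lost without control 1, control 2 or HD-homo 3, with an adjusted p of up to 0.0595. That of Vars was lost without any 1 of the control libraries, HD-het 1 or HD-homo 2, so that the count of cytosolic decreases became 0, with an adjusted p of up to 0.124. Of the scaffold genes, Aimp2 rose (log2 fold change 0.30, SE 0.10, adjusted p = 0.0241), a call lost without control 1, control 2, HD-homo 1 or HD-homo 3 (adjusted p up to 0.0717). Aimp1 did not pass (0.08, SE 0.08, adjusted p = 0.359).

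Among the mitochondrial genes, Mars2 again had the largest decrease in HD-homo cells, at 0.642 times the control mean (log2 fold change -0.64, SE 0.07, adjusted p = 1.24e-05). Lars2, for leucine, had 14.6, 15.02 and 15.6 CPM in control, 11.6, 11.9 and 12.2 CPM in HD-het and 9.11, 11.2 and 9.93 CPM in HD-homo libraries. The 3 ranges did not overlap, with HD-homo lowest (log2 fold change -0.58, SE 0.09, adjusted p = 0.000208). Aars2, for alanine, had 20.9, 19.2 and 21.6 CPM in control, 17.4, 15.03 and 18 CPM in HD-het and 14.6, 13.9 and 13.1 CPM in HD-homo libraries, likewise with HD-homo lowest and no overlap (log2 fold change -0.57, SE 0.09, adjusted p = 0.000223). Other decreases included those of Sars2 (-0.53), Iars2 (-0.40), Hars2 (-0.29) and Vars2 (-0.21), all on the log2 scale. Hars2 and the cytosolic Hars start 197 bases inside each other on opposite strands, so that their reads are uncertain where strand was not used in counting.

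Rars2, for arginine, was the single mitochondrial increase in HD-homo cells, with 18.6, 20.1 and 18.1 CPM in control, 18.2, 19.8 and 20.1 CPM in HD-het and 20.8, 22.02 and 23.8 CPM in HD-homo libraries (log2 fold change 0.23, SE 0.08, adjusted p = 0.0278). The HD-homo libraries lay above both other lines. Its call was lost without control 1, control 3 or HD-homo 3, which brought the count of increases to 0 (adjusted p up to 0.0955). The decrease of Vars2 was also lost without any 1 of the control libraries, HD-homo 2 or HD-homo 3, with an adjusted p of up to 0.0967.

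The 2 HD lines, compared directly, differed in most of the family. Between HD-homo and HD-het cells, 17 of 20 cytosolic genes were called, 9 higher and 8 lower in HD-homo cells, beside 71.6% of all tested genes (36.0% higher and 35.6% lower). Of the mitochondrial genes 6 were higher and 7 lower, and both scaffold genes were higher. The libraries of the HD lines did not overlap for 17 of the cytosolic genes, 10 of the mitochondrial genes and both scaffold genes, beside 72.8% of all tested genes. Of the 10 family genes in the complex, 7 were higher and 2 lower (Lars and Eprs), 90% beside 71.6% of all tested genes. The median log2 fold change was 0.34, beside 0.002 over all tested genes. Among the 8 enzymes alone, 5 were higher and 2 lower, with a median of 0.25. This comparison shares the HD-het libraries with the first, so a gene low in those libraries counts in both.

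**Figure D3:**
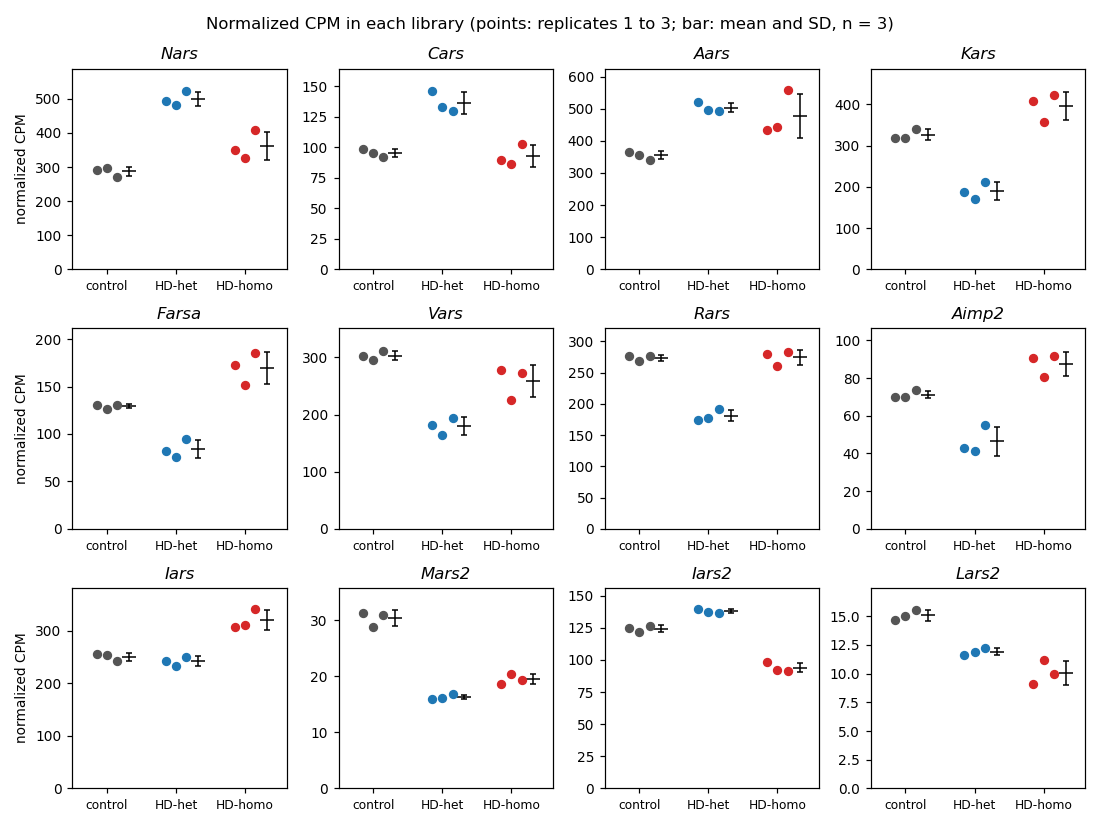
Normalized CPM of 12 genes in each library, with replicates 1 to 3 from left to right within a line and the mean and SD (n = 3) beside them, on axes that start at 0. Nars and Cars are highest in HD-het cells, whereas Kars, Farsa, Vars, Rars and Aimp2 are lowest there, and Mars2 and Lars2 lie below control in both HD lines.

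Kars showed the largest difference between the HD lines, at 2.08 times the HD-het mean in HD-homo cells (log2 fold change 1.06, SE 0.09, adjusted p = 8.35e-07). Farsa was close to it at 2.02 times (log2 fold change 1.01, SE 0.09, adjusted p = 1.42e-06), and Rars (0.60, SE 0.06, adjusted p = 2.53e-06) and Vars (0.52, SE 0.09, adjusted p = 0.000198) followed on the log2 scale. Aimp2 was 1.89 times as high in HD-homo cells (log2 fold change 0.92, SE 0.10, adjusted p = 9.05e-06) and Aimp1 1.43 times (log2 fold change 0.51, SE 0.08, adjusted p = 9.46e-05). In the other direction, Cars was 0.681 times as high in HD-homo as in HD-het cells (log2 fold change -0.56, SE 0.07, adjusted p = 4.28e-05), followed by Nars (-0.47, SE 0.08, adjusted p = 0.000285), Wars (-0.44, SE 0.06, adjusted p = 6.05e-05) and Lars (-0.43, SE 0.05, adjusted p = 1.79e-05). Nars thus lay above control in both HD lines and higher in HD-het, whereas Cars, Wars and Lars lay above control in HD-het cells and overlapped control in HD-homo cells.

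Among the mitochondrial genes, Fars2, for phenylalanine, had 15.4, 14.7 and 15.3 CPM in control, 11.96, 12.1 and 11.8 CPM in HD-het and 16.4, 16.3 and 18.2 CPM in HD-homo libraries, 3 ranges that did not overlap (log2 fold change 0.51, SE 0.08, adjusted p = 9.75e-05 for HD-homo against HD-het). Tars2, for threonine, had 55.2, 54.6 and 51.4 CPM, 43.1, 43.3 and 52.4 CPM and 57.6, 51.5 and 59.8 CPM in the same order, and its HD-het library 3 lay within the HD-homo range (log2 fold change 0.28, SE 0.09, adjusted p = 0.0122, up to 0.0577 without HD-het 1 or HD-het 2). Cars2, for cysteine, had 17.6, 18.05 and 18.2 CPM, 13.9, 14.4 and 15.04 CPM and 17.3, 17.7 and 17.6 CPM, with HD-het below both other lines (log2 fold change 0.28, SE 0.07, adjusted p = 0.00315). These 3 genes were the largest increases of the class from HD-het to HD-homo cells.

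The decreases were led by Iars2, at 0.682 times the HD-het mean (log2 fold change -0.55, SE 0.05, adjusted p = 1.97e-06). Vars2, for valine, had 20.4, 21.3 and 20.7 CPM in control, 24.6, 22.8 and 22.3 CPM in HD-het and 19.4, 17.002 and 17.5 CPM in HD-homo libraries, with HD-het highest and no overlap between lines (log2 fold change -0.37, SE 0.08, adjusted p = 0.000944). The count of 6 higher mitochondrial genes became 3 without HD-het 1 or HD-het 2, and that of 7 lower genes became 4 without HD-het 1 or HD-het 3. Dars, Ears2 (glutamate), Nars2 (asparagine) and Wars2 were not called in any of the 3 comparisons, with log2 fold changes between -0.15 and 0.23.

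Setting the 2 enzymes for the same amino acid side by side within a library removes the scaling of that library. For 17 amino acids the table holds a cytosolic and a mitochondrial gene, with Eprs taken for both glutamate and proline and Farsa for phenylalanine, and the log2 ratio of their counts was computed per library without correction for length. In HD-het cells the ratio lay above control without overlap for 9 amino acids, below it for 6 and overlapping for 2. The shifts of the mean ranged from -0.91 for valine to 0.93 for serine. In HD-homo cells it lay above control for 9, below for 0 and overlapping for 8. These shifts ranged from -0.23 for arginine to 0.99 for alanine. Libraries of single genes did not overlap control for 74.0% of all tested genes in HD-het and 65.3% in HD-homo cells. No such share was computed for ratios of other gene pairs, so these counts have no baseline.

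In HD-het cells, 5 of the 17 amino acids had a cytosolic gene called higher and a mitochondrial gene called lower. These were alanine, cysteine, leucine, serine and tyrosine. Taken singly, 9 of 20 cytosolic genes were higher and 8 of 17 mitochondrial genes lower in these cells. No share of opposite calls was computed for other gene pairs in any comparison, so such counts have no baseline. The log2 ratio of Sars to Sars2 was 3.74 to 3.86 in control and 4.56 to 4.83 in HD-het libraries. For Cars and Cars2 it was 2.34 to 2.48 in control and 3.11 to 3.40 in HD-het libraries, and it returned to 2.29 to 2.54 in HD-homo libraries, overlapping control. For Aars and Aars2 the ratio was 3.98 to 4.22 in control, 4.77 to 5.05 in HD-het and 4.89 to 5.41 in HD-homo libraries, so that both HD lines lay above control and overlapped each other. For leucine the ratio of Lars to Lars2 was 3.79 to 3.95, 4.62 to 4.67 and 4.31 to 4.54 in control, HD-het and HD-homo libraries, and for tyrosine the ratio of Yars to Yars2 was 1.47 to 1.57, 2.09 to 2.27 and 1.74 to 1.79. Both were highest in HD-het cells, with no overlap between the lines.

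In HD-homo cells against control, the opposite calls were those of alanine and isoleucine. The ratio of Iars to Iars2 was 0.93 to 1.06 in control, 0.76 to 0.88 in HD-het and 1.64 to 1.90 in HD-homo libraries, with Iars higher and Iars2 lower in HD-homo cells. Between the 2 HD lines, cysteine, isoleucine, valine and tyrosine had opposite calls. The ratio of Vars to Vars2 was 3.79 to 3.92 in control, 2.84 to 3.12 in HD-het and 3.73 to 3.97 in HD-homo libraries, so that HD-het cells lay below both other lines, and these overlapped.

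**Figure D4:**
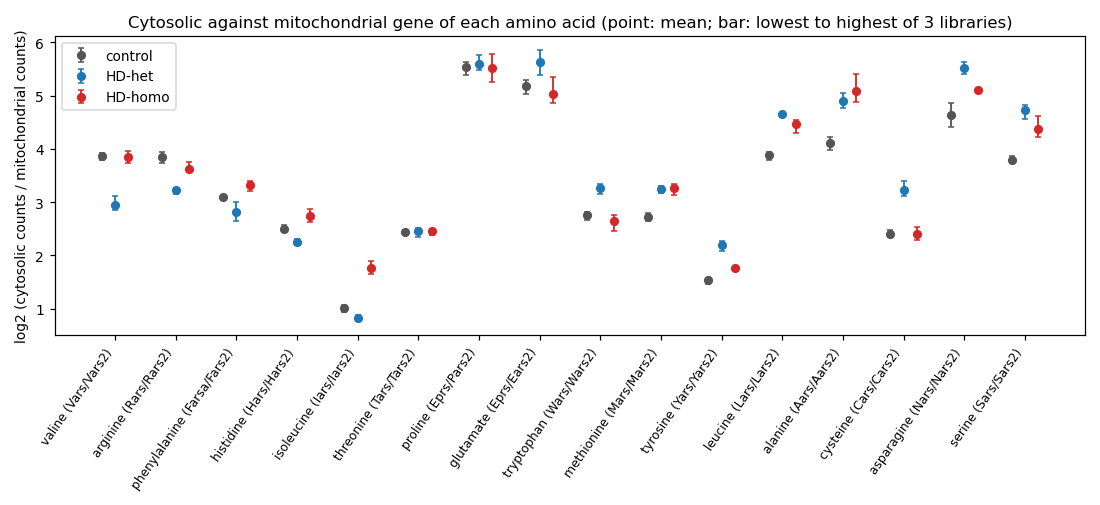
Log2 ratio of the counts of the cytosolic gene to those of the mitochondrial gene for 16 of the 17 amino acids, ordered by the shift from control to HD-het cells, with the mean as a point and the lowest and highest of 3 libraries as a bar. HD-het cells (blue) lie below control (black) for valine and arginine at the left and above it for serine and asparagine at the right.

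Summed over each class, the balance between the classes also differed between the lines. The 20 cytosolic genes summed to 4370 ± 61.4 CPM in control, 4642 ± 110 CPM in HD-het and 4714 ± 290 CPM in HD-homo cells (SD, n = 3). The 17 mitochondrial genes summed to 467 ± 4.74, 437 ± 14.0 and 402 ± 9.24 CPM. The ratio of the 2 sums ran from 9.13 to 9.53 in control, from 10.5 to 10.8 in HD-het and from 11.3 to 12.5 in HD-homo libraries, 3 ranges that did not overlap, and no p is given for these sums. They are dominated by the genes with the most reads, such as Aars, Eprs and Iars2, and are not corrected for length.

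The other genes of the pathway were taken from 3 lists. Of 23 genes of the amino acid response, 15 were higher and 6 lower in HD-het cells, 91.3% beside 65.1% of all tested genes, with a median log2 fold change of 0.42 beside 0.03 over all tested genes. The largest increases were those of Trib3, a pseudokinase induced by ATF4 and CHOP, and of Chac1, which degrades glutathione. Trib3 had 8.27, 9.01 and 7.67 CPM in control, 58.5, 52.98 and 62.7 CPM in HD-het and 13.2, 11.5 and 27.5 CPM in HD-homo libraries (log2 fold change 2.80, SE 0.27, adjusted p = 4.77e-06 for HD-het against control). Chac1 had 9.55, 9.90 and 9.80 CPM, 37.1, 33.6 and 39.2 CPM and 12.1, 9.28 and 35.8 CPM in the same order (log2 fold change 1.91, SE 0.39, adjusted p = 0.00126). Their HD-het libraries lay above the control libraries, and HD-homo 3 was the highest HD-homo library of both genes.

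Other increases in HD-het cells included Ddit3, which encodes CHOP (1.47, SE 0.15, adjusted p = 5.85e-06), Slc7a11, the cystine transporter (1.49, SE 0.14, adjusted p = 3.1e-06), and Asns, which makes asparagine (0.77, SE 0.08, adjusted p = 6.77e-06), given as log2 fold changes. Atf4 mRNA itself was lower in HD-het cells (-0.21, SE 0.06, adjusted p = 0.00953). The largest decreases were those of Slc1a5, a glutamine transporter that had 79.98, 80.5 and 80.6 CPM in control and 23.4, 21.5 and 25.04 CPM in HD-het libraries (log2 fold change -1.79, SE 0.07, adjusted p = 6.64e-09), and of Ddit4, an inhibitor of mTORC1 (-0.89, SE 0.19, adjusted p = 0.00176). Among genes of serine and one-carbon metabolism, Shmt2 (-0.45), Psat1 (-0.32) and Phgdh (-0.18) were lower, Phgdh not without any 1 of the control libraries, HD-het 1 or HD-het 2 (adjusted p up to 0.14), and Psph (0.90) and Mthfd2 (0.28) were higher.

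In HD-homo cells the same list had 7 genes higher and 4 lower against control, 47.8% beside 58.6% of all tested genes, with a median of 0.08 beside 0.01 over all tested genes. Pycr1, which makes proline (1.26, SE 0.10, adjusted p = 6.57e-07), and Trib3 (1.06, SE 0.27, adjusted p = 0.00597) rose most, Trib3 by 0.56 without HD-homo 3 (adjusted p = 0.00105). Slc1a5 (-1.43, SE 0.07, adjusted p = 1.38e-08) and Ddit4 (-0.94, SE 0.19, adjusted p = 0.00148) fell most. Atf4 did not pass (0.15, SE 0.06, adjusted p = 0.0506) but did under 5 alternatives, with an adjusted p of 0.0368 with the replicate number as a block, 0.0446 by DESeq2's Wald test, 0.0234 with library totals, 0.0433 with at least 10 counts in every library and 0.0235 without HD-homo 2. The block also brought in Slc6a9, a glycine transporter (0.33, adjusted p = 0.027), so that 9 genes of the list were higher. Chac1 did not pass (0.96, SE 0.40, adjusted p = 0.0562), with 0.12 without HD-homo 3 and 1.299 without HD-homo 2 (adjusted p = 0.399 and 0.00545). Between the HD lines, 5 genes of the list were higher and 16 lower in HD-homo cells, 91.3% beside 71.6% of all tested genes. The count of 16 became 11 without HD-homo 1, 12 without HD-het 1 or HD-homo 2, and 13 with only these 2 lines fitted. Vldlr, a lipoprotein receptor (-1.99, SE 0.20, adjusted p = 4.49e-06), and Trib3 (-1.74, SE 0.25, adjusted p = 7.82e-05) fell most, and Shmt2 (0.47, SE 0.08, adjusted p = 0.000223) and Atf4 (0.36, SE 0.06, adjusted p = 0.000231) rose most.

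Of 14 partners of tRNA charging, 5 were higher and 5 lower in HD-het cells, and 3 higher and 4 lower in HD-homo cells, each against control, with 2 lower without control 1. These are 71.4% and 50% of the list beside 65.1% and 58.6% of all tested genes, with median log2 fold changes of -0.08 and -0.02 beside 0.03 and 0.01. Dtd1, which removes wrongly attached D-amino acids from tRNA, had 2.40, 2.08 and 2.54 CPM in control, 6.74, 6.19 and 8.18 CPM in HD-het and 12.4, 13.4 and 11.3 CPM in HD-homo libraries. The lines did not overlap, and Dtd1 rose in both HD lines (1.59, SE 0.14, adjusted p = 2.61e-06 in HD-het and 2.41, SE 0.14, adjusted p = 6.43e-08 in HD-homo cells). In HD-het cells Pstk, a kinase of selenocysteine tRNA synthesis, followed (0.52, SE 0.13, adjusted p = 0.00532). Prorsd1 rose by a like amount (0.52, SE 0.12, adjusted p = 0.00235).

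Eef1e1, the scaffold component of the complex that the symbol rule left out, had 66.9, 64.7 and 65.8 CPM in control, 37.8, 40.1 and 48.1 CPM in HD-het and 86.5, 76.8 and 92.8 CPM in HD-homo libraries. As with Aimp2, it was lowest in HD-het and highest in HD-homo cells, with no overlap (-0.65, SE 0.09, adjusted p = 9.89e-05 and 0.37, SE 0.09, adjusted p = 0.00472 against control, 1.02, SE 0.09, adjusted p = 1.93e-06 between the HD lines). Elac2, which trims the 3′ ends of tRNA precursors, had the largest decrease of this list in HD-het cells (-0.72, SE 0.08, adjusted p = 2.01e-05). Its relative Elac1 rose in HD-het (0.45, SE 0.08, adjusted p = 0.000657) and fell in HD-homo cells (-0.63, SE 0.09, adjusted p = 9.25e-05). Tarsl2, a further threonine synthetase gene outside the symbol rule, fell in both (-0.49, SE 0.07, adjusted p = 0.000128 and -0.66, SE 0.07, adjusted p = 1.74e-05). Trnt1, which adds the CCA end to tRNAs, was lower in HD-het (-0.36, SE 0.07, adjusted p = 0.000995) and higher in HD-homo cells (0.32, SE 0.07, adjusted p = 0.00276).

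Of 12 mitochondrial partners, 3 were higher and 7 lower in HD-het cells, 83.3% beside 65.1% of all tested genes, with a median of -0.32 beside 0.03 over all tested genes. Qrsl1, a subunit of the amidotransferase that completes glutamine charging in mitochondria, had 25.3, 24.03 and 24.5 CPM in control, 14.3, 13.8 and 15.8 CPM in HD-het and 21.95, 22.9 and 21.6 CPM in HD-homo libraries (log2 fold change -0.75, SE 0.07, adjusted p = 5.08e-06 for HD-het against control). Gatb, another subunit of the same enzyme, was higher (0.36, SE 0.14, adjusted p = 0.0422, and 0.0541 with the replicate number as a block), and the third, Gatc, was lower (-0.33, SE 0.08, adjusted p = 0.00423). The call of Gatb was lost without any 1 of 6 libraries (adjusted p up to 0.166), and the count of 3 increases became 1 without control 3 or HD-het 1. The mitochondrial elongation factors Tsfm (-0.64, SE 0.09, adjusted p = 0.000102), Gfm1 (-0.52, SE 0.06, adjusted p = 1.46e-05) and Tufm (-0.33, SE 0.10, adjusted p = 0.0115) fell in HD-het cells, and the initiation factor Mtif2 rose (0.35, SE 0.09, adjusted p = 0.0048). The call of Tufm was lost without control 3, HD-het 1 or HD-het 2 (adjusted p up to 0.0526).

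In HD-homo cells against control, 1 of these 12 was higher, or 2 without HD-homo 2, and 3 were lower, 33.3% beside 58.6% of all tested genes, with a median of -0.04 beside 0.01. Gfm2, which acts in ribosome recycling, rose (0.29, SE 0.08, adjusted p = 0.00697), and Tsfm (-0.39, SE 0.09, adjusted p = 0.00332), Gfm1 (-0.33, SE 0.06, adjusted p = 0.000559) and Tufm (-0.30, SE 0.10, adjusted p = 0.0217) fell, Tufm not without control 3 or HD-homo 2 (adjusted p up to 0.0888). Between the HD lines, 6 were higher and 2 lower in HD-homo cells, 66.7% beside 71.6% of all tested genes. Gfm2 (0.60, SE 0.08, adjusted p = 2.74e-05) and Qrsl1 (0.60, SE 0.07, adjusted p = 1.97e-05) showed the largest increases, and Mtrf1, a release factor gene, the largest decrease (-0.59, SE 0.15, adjusted p = 0.00469).

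**Figure D5:**
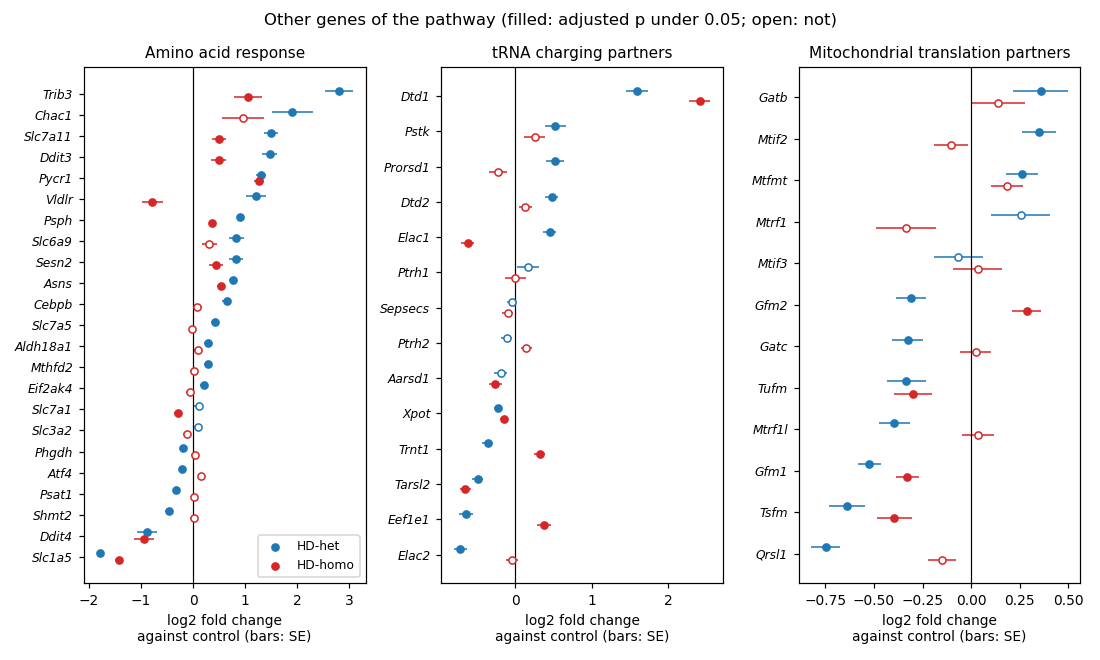
Log2 fold change against control, with SE as bars, of the 23 amino acid response genes, the 14 partners of tRNA charging and the 12 mitochondrial partners in HD-het (blue) and HD-homo (red) cells. Filled points passed an adjusted p of 0.05; Trib3 reaches 2.80 in HD-het cells, and Dtd1 reaches 2.41 in HD-homo cells.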

How the data were processed

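Poly(A) RNA of 9 libraries, 3 from each of 3 mouse striatal lines, was sequenced strand-specifically. The authors deposited raw counts per gene symbol, unnormalized and whole. The submitters' processing notes name cutadapt, Bowtie 1.1.2, RSEM 1.3.0, DESeq2, GRCm38.p5 and mm10, so the counts may be rounded estimates. Totals ran from 29507665 to 41197931 counts, and 26 symbols are dates. Genes were filtered by filterByExpr (minimum count 10), scaled by TMM and tested by edgeR 4.0.16 (R 4.3.3) with 1 mean per line over all 9 libraries and Benjamini-Hochberg adjustment within each comparison. The study's text names no such test. Members and lists were chosen with earlier results of these data known, so no test was made over a list. Library values and statistics are given for the 4 (cytosolic) or 3 (mitochondrial) largest called changes each way, the scaffold genes and pairs called in opposite directions, and for pathway lists the 2 largest each way with others chosen after seeing values. The steps were tested on simulated data. The values of 1 mitochondrial gene are not reported here, though it is part of the class counts.

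Same-numbered libraries deviated together in HD-het and control (r = 0.124, 0.412 and 0.289 over 9399 genes) and in HD-homo and HD-het (0.102, 0.322 and 0.238), not in HD-homo and control (0.0318, 0.111 and 0.0423). The labels do not say what a number shares. Positions, lengths and shared 50-base words come from GENCODE on GRCm38, and promoters from RefSeq (GRCm38.p6). Fold changes are edgeR's, with ratios of mean CPM beside them. Alternatives were DESeq2's size factors, library totals, the Wald test of DESeq2 1.42.0, 2 other filters, only the lines compared, the block, each library left out and a threshold of 0.01. Leaving out library 3 of control and HD-het together and using the median transcript length were chosen after seeing the data.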

Additional observations from a re-analysis of the deposited data

Results flagged for a closer look

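Of the family, 4 genes were called in opposite directions against control in the 2 HD lines, 10.3% of 39, beside 14.5% of all 13508 tested genes. Both comparisons use the same control libraries, and the difference between the HD lines follows from the 2 values by which these genes were chosen, so it is given as a description with no test. Kars was lower in HD-het (-0.78) and higher in HD-homo cells (0.28), and the lines differed by 1.06 on the log2 scale (SE 0.09). Farsa was lower in HD-het (-0.62) and higher in HD-homo cells (0.39), a difference of 1.01 (SE 0.09). Aimp2 was lower in HD-het (-0.62) and higher in HD-homo cells (0.30), a difference of 0.92 (SE 0.10). Iars2 went the other way, higher in HD-het (0.15) and lower in HD-homo cells (-0.40), a difference of -0.55 (SE 0.05). Against control, the HD-homo calls of Kars and Aimp2 and the HD-het call of Iars2 were each lost under some alternatives. Their adjusted p rose to as much as 0.0595, 0.0717 and 0.0923. Both calls of Farsa held under all 17 alternatives. With 3 libraries a line, no formal test for outlying libraries was made. Library 3 of control and of HD-het cells, the farthest from the others, was left out in an alternative chosen after seeing the data.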

How the results depend on the processing

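The 39 genes were refitted under 17 alternatives in 3 comparisons, which gave 1989 values. Of these 1872 kept the side of the threshold of the reported value, 104 lost the call, 13 gained it and 0 turned a called direction. Calls held under every alternative for 10 of 16 genes in HD-homo against control, 24 of 30 in HD-het against control and 25 of 32 in HD-homo against HD-het cells. With the replicate number as a block, no member call changed (of the pathway lists, Atf4, Slc6a9 and Tarsl2 gained 1 call each and Gatb lost 1), and the cytosolic counts in HD-het against control stayed at 9 higher and 9 lower. DESeq2's size factors changed no member call, and the median of all genes moved by under 0.1 on the log2 scale with any scaling.

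Counts of called genes stayed within 1.5 times the reported value in 195 of 222 cases. The exceptions were small counts. In HD-homo against control, the cytosolic decrease (Vars) and the mitochondrial increase (Rars2) became 0 at an adjusted p under 0.01 and with library 3 of control and HD-het left out together. In HD-het against control, the 2 mitochondrial increases became 0 with no filter or at 0.01, and 1 without both libraries 3. In HD-homo against HD-het, the mitochondrial increases became 3 at 0.01, and the decreases 4 at 0.01 or without both libraries 3. Leaving out 1 library at a time gave 0 to 1 cytosolic decreases and 0 to 1 mitochondrial increases in HD-homo against control, 0 to 3 mitochondrial increases in HD-het against control, and 3 to 8 increases and 4 to 6 decreases of mitochondrial genes in HD-homo against HD-het. For a count that fell at 0.01 or with fewer libraries, the alternative itself is stricter or holds fewer samples, and the cause of the change with no filter was not tested. The median level per kilobase by median transcript length was 89.99 (control), 88.9 (HD-het) and 96.8 (HD-homo) CPM for cytosolic genes, and 9.04 and 6.48 for mitochondrial genes of control and HD-het cells. For some genes, such as Vars and Tars2, that length is shorter than the longest coding sequence.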
